A study of Mus musculus with 84 samples.

Results

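Astrocytes that carry the glutamate transporter GLAST on their surface were sorted from the hindbrain, here the cerebellum with the brain stem, of mice at the onset of experimental autoimmune encephalomyelitis (EAE) and of unimmunized mice. The libraries described are all those titled hindbrain ACSA-positive GLAST-positive at score 1 (E1, 6 libraries) and control (C, 5 libraries), together 11 of the 66 libraries of the EAE experiment and of 84 in the series. The mice of the EAE experiment were C57BL/6. EAE was induced in females of 10 weeks with the myelin peptide MOG35-55 in complete Freund's adjuvant, followed by pertussis toxin on the same day and 24 h later. The study states age and sex for the mice in which EAE was induced and not for the controls. Score 1 is a limp tail. Cells were gated as live CD11B-negative and CD45-negative, a gate meant to exclude microglia and leukocytes, and then as ACSA-2-positive and GLAST-positive (GLASTpos). Controls were unimmunized, and no group given adjuvant or toxin without disease was compared, so that the effects of these agents cannot be told apart from those of the disease. A library could hold the RNA of 1 mouse or of 2 mice. For comparison, 4 further sets of libraries were used: hindbrain ACSA-2-positive cells without surface GLAST (GLASTneg, 5 C and 6 E1), spinal cord GLASTneg cells (5 C and 5 E1), and hindbrain GLASTpos cells at score 4 (E4, 6 libraries) and in chronic EAE (Ech, 4 libraries). For 1 spinal cord E1 library the region field of the labels disagrees with its title, and the title was followed.

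In EAE, T cells directed against myelin enter the central nervous system and release cytokines such as interferon gamma. Astrocytes carry receptors for interferons, for cytokines of the interleukin 6 family and for tumour necrosis factor, which act through STAT factors and NF-kappaB. Interferon signalling turns on immunity-related GTPases, antiviral proteins and the machinery that shows peptides on MHC class I. In the cerebellum GLAST is abundant on Bergmann glia, the radial astrocytes that wrap the synapses of Purkinje cells, and is also present on other astrocytes.

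Sequences upstream of genes that the results turn on are shown first. They are RefSeq promoters of GRCm38.p6, read 5′ to 3′ on the strand of the gene, from 250 bases before to 50 bases after the annotated start. Promoters of 3 interferon-induced genes (Igtp, Irgm2 and Isg15) are shown with the core of the interferon-stimulated response element (ISRE: GAAA, any 2 bases, GAAA) in capitals, that of Gfap with the palindrome bound by STAT factors (GAS, TTCNNNGAA), and that of Mt2 with the core of the metal response element (TGCACNC or TGCGCNC). Both strands were searched, and the 3 ISRE matches in Isg15 overlap. Igtp is chr11:58199306-58199605 (+), Irgm2 is chr11:58214727-58215026 (+), Isg15 is chr4:156200769-156201068 (-), Gfap is chr11:102897151-102897450 (-) and Mt2 is chr8:94172368-94172667 (+).
Igtp: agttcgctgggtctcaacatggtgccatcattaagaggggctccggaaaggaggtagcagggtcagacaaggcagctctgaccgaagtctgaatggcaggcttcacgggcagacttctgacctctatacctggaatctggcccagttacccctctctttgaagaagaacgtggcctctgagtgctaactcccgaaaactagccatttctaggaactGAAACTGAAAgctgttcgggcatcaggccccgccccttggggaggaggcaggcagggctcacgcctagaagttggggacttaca
Irgm2: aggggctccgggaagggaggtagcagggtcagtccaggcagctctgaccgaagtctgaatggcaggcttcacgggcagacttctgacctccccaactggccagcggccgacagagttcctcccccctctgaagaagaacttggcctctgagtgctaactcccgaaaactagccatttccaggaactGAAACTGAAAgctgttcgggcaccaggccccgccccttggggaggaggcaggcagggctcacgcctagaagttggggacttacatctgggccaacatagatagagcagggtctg
Isg15: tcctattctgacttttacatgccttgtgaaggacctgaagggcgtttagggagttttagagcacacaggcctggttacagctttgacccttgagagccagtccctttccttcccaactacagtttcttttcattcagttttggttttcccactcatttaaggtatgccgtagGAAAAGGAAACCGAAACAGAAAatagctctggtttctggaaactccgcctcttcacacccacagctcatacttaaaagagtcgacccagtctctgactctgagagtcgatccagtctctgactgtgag
Gfap: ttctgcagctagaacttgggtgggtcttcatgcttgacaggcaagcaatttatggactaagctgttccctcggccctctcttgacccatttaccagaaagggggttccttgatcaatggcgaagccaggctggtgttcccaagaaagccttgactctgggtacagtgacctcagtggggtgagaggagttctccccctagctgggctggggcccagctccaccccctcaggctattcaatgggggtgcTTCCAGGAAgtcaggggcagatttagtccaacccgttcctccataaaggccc
Mt2: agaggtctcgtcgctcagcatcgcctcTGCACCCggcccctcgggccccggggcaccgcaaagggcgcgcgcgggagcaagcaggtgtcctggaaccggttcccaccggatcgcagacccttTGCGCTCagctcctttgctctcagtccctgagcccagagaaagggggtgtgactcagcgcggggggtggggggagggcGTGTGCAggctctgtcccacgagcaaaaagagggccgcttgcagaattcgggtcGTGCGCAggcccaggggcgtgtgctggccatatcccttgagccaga

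Of the tested genes, 13958 had a promoter in the RefSeq table, and 3.87% of these genes had an ISRE core in at least 1 promoter. Of the interferon-stimulated genes called higher at E1, 27 had a promoter, and 17 of these (63%) had an ISRE core. Over all genes called higher it was 35 of 216 (16.2%). GAS lay in promoters of 8.56% of all genes, of 9 of 27 (33.3%) called interferon-stimulated genes and of 14.8% of all genes called higher. The short metal response core was common, in promoters of 37.7% of all genes. It was less frequent among all genes called higher, at 62 of 216 (28.7%), and among called interferon-stimulated genes, at 5 of 27 (18.5%). It was present 4 times in Mt2 and 3 times in Mt1. A glucocorticoid response element (AGAACA, any 3 bases, TGTTCT) lay in promoters of 1 of all the genes and of none of the 5 called glucocorticoid-responsive genes with a promoter. A match of letters is a description and not a binding site.

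The libraries held between 2423406 and 3957998 counts in controls (median 2909625) and between 2531741 and 4065490 at E1 (median 3069869). Expression is given in CPM, read counts scaled to a common library total, after TMM scaling, in the order of control libraries 1 to 5 and E1 libraries 1 to 6. Values over 3 counts were taken as detected, which is between 0.736 and 1.23 CPM. A gene was called when the adjusted p of edgeR's quasi-likelihood test, fitted to all 23324 tested genes and all 66 libraries, was under 0.05 and the log2 fold change passed 1 in either direction, and all adjusted p-values below are from this test. The tests measure the spread between libraries, which hold 1 or 2 mice each.

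The sorted antigens were checked first. Slc1a3, which encodes GLAST, was expressed at 6471, 8385, 6414, 9085 and 5485 CPM in controls and between 7704 and 9702 CPM at E1 (median 9162), whereas GLASTneg libraries of the same region had means of 1373 ± 245 (SD, n = 5) and 1243 ± 239 CPM (n = 6). Slc1a3 did not pass the test between C and E1 (log2 fold change 0.32, adjusted p = 0.647). Atp1b2, which encodes ACSA-2, was at 5072 to 8091 CPM in the 11 libraries. Gdf10, a secreted factor of Bergmann glia chosen here after its values were seen, averaged 1706 ± 411 CPM in controls and 2194 ± 444 at E1, against 75.7 ± 27.3 and 94 ± 48 CPM in GLASTneg cells. All 20 astrocyte identity genes and 13 of 14 Bergmann glia genes were detected in each control library.

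The E1 libraries differed among themselves. Their summed expression of 42 interferon-stimulated genes was 787, 4730, 1194, 6218, 7088 and 1512 CPM, against 192 to 560.3 CPM in controls. Libraries 2, 4 and 5 stood together at the top. The same 3 libraries held 234, 646 and 149.9 CPM of 12 summed T cell markers, against 2.26, 8.19 and 10.8 CPM in libraries 1, 3 and 6 and at most 9.79 CPM in controls. Counts of called list members are therefore also given without E1 libraries 2, 4 and 5, those with over 100 CPM of these T cell markers. This choice was made after the data were seen and leaves 3 E1 libraries against 5 controls. Fold changes of genes high in the 3 libraries must fall without them, so that a lost call is a description and not a test. Fewer cells of a type and less RNA per cell cannot be told apart in such bulk libraries.

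In all, 297 genes were called higher at E1 (1.27% of genes tested) and 50 were called lower (0.214%), together 1.49%. Expression did not overlap between the groups for 95 of the 297 and for 8 of the 50 genes, while over all genes tested 0.609% were higher and 0.326% lower without overlap. Of the 297 genes, 116 were at 0 in all 5 control libraries and 140 were detected in all 6 E1 libraries. The highest value was in E1 library 4 for 157 of the 297 genes, in library 5 for 59, in library 2 for 36, in library 1 for 27, in library 6 for 10 and in library 3 for 8. Without E1 libraries 2, 4 and 5, 63 genes were called higher, of which 60 were among the 297, and 9 were called lower, of which 4 were among the 50.

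**Figure D1:**
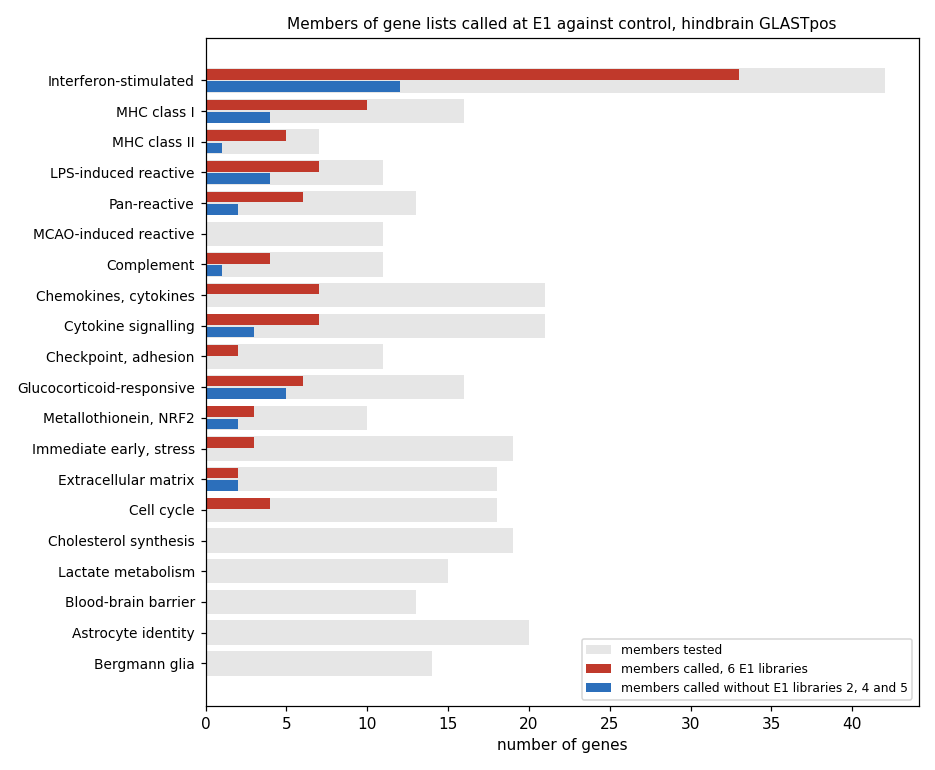
Members of gene lists called at E1 against control in hindbrain GLASTpos astrocytes. Grey bars show the number of members tested, red bars the number called with all 6 E1 libraries and blue bars the number called without E1 libraries 2, 4 and 5. Interferon-stimulated genes had 33 of 42 members called, and astrocyte identity genes had 0 of 20.

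Interferon-stimulated genes were called for most of their members. Of 42 genes 33 were called higher, and 18 of the 42 were higher at E1 without overlap between the groups. The median log2 fold change of the 42 was 3.76 against 0 over all genes. With the 5 members that were at 0 in all controls set to their lower bound, the median was 3.44. Without E1 libraries 2, 4 and 5, 12 of the 42 were called, in a fit where the genes called higher over all genes went from 297 to 63.

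Immunity-related GTPases, which attack the vacuoles of intracellular parasites, were above all controls in every E1 library. Igtp (ENSMUSG00000078853, GRCm38 chr11:58199556-58207591) was expressed at 5.72, 4.93, 19.3, 6.85 and 22.3 CPM in controls and at 111, 688, 88.9, 773, 948 and 201 CPM at E1. The lowest E1 library was above the highest control, and the log2 fold change was 5.28 (SE 0.66, adjusted p = 6.55e-08). For Irgm2, the values were 11, 10.6, 7.51, 10.9 and 19.4 CPM in controls and 98.5, 542, 97.8, 909, 1188 and 113 CPM at E1. Its log2 fold change was 5.35 (SE 0.74, adjusted p = 7.25e-07). In the GENCODE annotation Irgm2 (chr11:58199618-58222782) starts inside Igtp on the same strand, upstream of its RefSeq start used above, so that reads in the shared part are uncertain between them. Without libraries 2, 4 and 5 both were still called, with log2 fold changes of 3.46 and 3.09. Iigp1, another member, was between 0.326 and 4.91 CPM in controls and 25.4, 256, 69.9, 300, 336 and 58.0 CPM at E1 (log2 fold change 6.09, adjusted p = 1.49e-07). Ifi47, a further GTPase of this family, reached 12.7 to 134 CPM (median 72.5) from at most 1.96 CPM (log2 fold change 6.80, adjusted p = 9.72e-08), and Irgm1 rose by 4.36 on the log2 scale (SE 0.75).

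Guanylate-binding proteins, a related GTPase family, were unequal. Gbp2, which was counted with the LPS genes below, was at 0.409, 0, 13.4, 2.03 and 3.68 CPM in controls and at 29.3, 235, 32, 299, 215 and 50.5 CPM at E1 (log2 fold change 5.16, SE 0.81, adjusted p = 1.35e-05). Gbp7 went from 4.57 to 9.10 CPM in controls to 17.8 to 174 CPM (median 92.6) at E1 (log2 fold change 3.75, adjusted p = 5.24e-07). Neither gene overlapped between the groups. Gbp6, in contrast, was called on 1 library, with 367 CPM in E1 library 4 against at most 7.43 CPM in the other E1 libraries, and the call was lost without that library or any 1 control.

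Among transcription factors of the interferon pathway, Irf1 and Irf9 were called with and without libraries 2, 4 and 5, and Stat2 lost its call without them (log2 fold change 1.39, adjusted p = 0.133). Irf1, an early interferon target that itself activates transcription, rose from 6.6 to 17.9 CPM to 52.2 to 251 CPM (median 145, log2 fold change 3.39, SE 0.49, adjusted p = 1.6e-06). Irf9, a subunit of the factor that binds ISRE sites, was at 15.5, 19.3, 21.9, 21.1 and 59.4 CPM in controls and at 62.6 to 193 CPM (median 141) at E1. Its highest control, library 5, came close to the lowest E1 library, and the log2 fold change was 2.22 (SE 0.31, adjusted p = 8.68e-07). The genes of the receptors for both interferon types, Ifngr1, Ifngr2, Ifnar1 and Ifnar2, had log2 fold changes of 0.73, -0.01, -0.11 and 0.07 and were not called. These 4 were picked after their values were seen.

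Several called genes have antiviral roles. Isg15, a ubiquitin-like protein, was at 3.27, 0.758, 2.61, 2.28 and 15.7 CPM in controls and at 9.31, 225, 58.1, 246, 249 and 34.2 CPM at E1 (log2 fold change 4.72, SE 0.69, adjusted p = 3.13e-06). E1 library 1 was below control library 5, so that the groups overlapped. Oasl2, of the oligoadenylate synthetase family, was at most 6.14 CPM in controls and 8.75 to 142 CPM (median 52.6) at E1, with a log2 fold change of 5.40 (adjusted p = 6.55e-08). Control library 5 set this fold, which was 8.37 without it. Ddx60, a helicase of RNA sensing, had 1 count in all controls together and 1.28 to 22.8 CPM at E1, a ratio of 173 (95% counting interval 31.1 to 6849). The call of Ifit3, which has a near-identical neighbour Ifit3b, rested on fewer libraries, with 45.0, 35.2, 38.8, 47 and 151 CPM in controls and 62.9 to 677 CPM at E1 (adjusted p = 0.0122), and was also lost without control library 2 or E1 library 5. Without libraries 2, 4 and 5, Ifit3 had a log2 fold change of 0.85 and Rsad2, which encodes viperin, one of -0.28, and neither was called. Gm4951, a further gene of this GTPase family, was at 0 in all controls and at 0.978 to 53.6 CPM at E1, at least 22.1-fold higher. Such bounds set the E1 mean against 3 counts per library, in the control library where 3 counts are the most CPM.

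**Figure D2:**
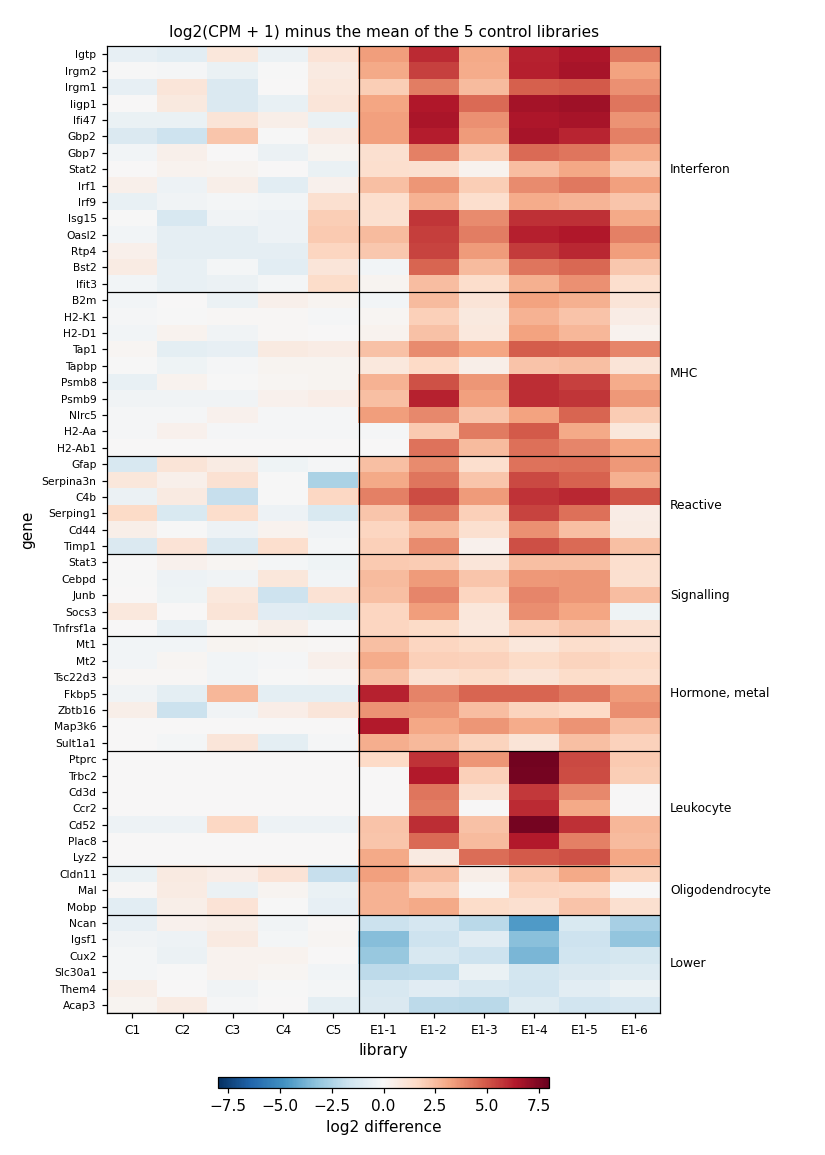
Expression of 59 genes in each library, as log2(CPM + 1) minus the mean of the 5 control libraries, with genes in rows, grouped by role, and libraries in columns. Red marks values above the control mean and blue values below. Igtp, H2-K1 and Ptprc are highest in E1 libraries 2, 4 and 5, and E1 library 1 is darkest for Map3k6 and Fkbp5.

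Of 16 genes of the MHC class I pathway 10 were called higher, and 6 of the 16 were higher at E1 without overlap. The median log2 fold change of the 16 was 2.15. The sum of the 16 was 722 CPM in E1 library 1, next to the highest control at 710.3 CPM, and 1055 to 4861 CPM in the other E1 libraries. Of the class I heavy chains, H2-K1 was at 265, 269, 297, 292 and 264 CPM in controls and at 307, 1062, 467, 1890 and 1340 CPM in E1 libraries 1 to 5 and 417 CPM in E1 library 6. All E1 libraries were higher than all controls (log2 fold change 1.72, SE 0.32, adjusted p = 0.000427). B2m, the light chain, was at 83.8, 100.1, 71.5, 129.7 and 117 CPM in controls and at 84.9, 576, 198, 919, 719 and 198 CPM at E1, with E1 library 1 inside the control range (log2 fold change 2.16, SE 0.35, adjusted p = 2.15e-05). Without libraries 2, 4 and 5 the log2 fold changes of H2-K1 and B2m were 0.51 and 0.66, and both calls were lost.

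Among genes of the peptide supply to class I, calls differed in how far they depended on libraries 2, 4 and 5. Psmb8, a subunit of the immunoproteasome, was at 0.817 to 2.27 CPM in controls and at 17.5, 90.5, 30.2, 163, 121 and 20.2 CPM at E1 (log2 fold change 5.29, SE 0.72, adjusted p = 5.2e-07). Tap1, which pumps peptides into the endoplasmic reticulum, was at 6.13, 2.65, 2.94, 9.14 and 8.34 CPM in controls and at 30.2, 86.6, 54.8, 180 and 164 CPM in E1 libraries 1 to 5 and 94.8 CPM in E1 library 6 (log2 fold change 4.08, SE 0.51, adjusted p = 7.01e-08). Nlrc5, the transactivator of class I genes, had 1 count in all controls and 3.26 to 26 CPM at E1, a ratio of 168 (95% counting interval 30.2 to 6635). Psmb8, Psmb9, Tap1 and Nlrc5 were the 4 members still called without libraries 2, 4 and 5, while Psmb10 and Tapbp, also of this supply, lost their calls (log2 fold changes 0.54 and 0.80). Psmb9 and Tap1 overlap on opposite strands, as do B2m and Patl2, and it is not known whether counting used strand, so that their counts are uncertain to that extent.

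MHC class II genes, which professional antigen-presenting cells express, were at or near 0 in controls. Of 7 genes 5 were called higher, with 1 of the 7 detected in any control library. H2-Aa was at 0, 3.61, 17.7, 30.5, 7.70 and 0.978 CPM at E1, with 1 count in all controls (ratio 133, 95% counting interval 23.9 to 5249). H2-Ab1 was at 0 in all controls and at 0, 19.7, 4.87, 20.3, 13.8 and 7.82 CPM at E1, at least 9.04-fold higher. Of the 5 calls, that of H2-Aa was kept without libraries 2, 4 and 5. Leukocyte markers moved with these genes and their part in the result was not tested.

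Those markers were read from lists of other cell types. Ptprc, which encodes the CD45 used to gate leukocytes out, was at 0 in all 5 controls and at 1.97, 53.1, 10.8, 211, 37.2 and 3.26 CPM in the E1 libraries, at least 43.1-fold higher. It was thus detected in every E1 library. Trbc2, the T cell receptor beta constant region, was at 0, 81.3, 2.82, 197, 36.9 and 2.93 CPM at E1 and at 0 in controls, and Cd3d was at 18, 50.4 and 13.5 CPM in libraries 2, 4 and 5 and at most 1.28 CPM elsewhere. Of 12 T cell markers 5 were called, none of them detected in all E1 libraries. By the same test 0 were called without libraries 2, 4 and 5, which was set in advance, since the sum of these markers chose those libraries. Of 12 markers of infiltrating leukocytes 6 were called, with summed levels of 20.6, 223, 51.7, 705, 186 and 46.3 CPM at E1 and 0 to 9.79 CPM in controls. Ptprc and Plac8 were still called without libraries 2, 4 and 5, and Lyz2, the lysozyme of myeloid cells, was at 7.05, 0.656, 20.7, 29.0, 33.1 and 7.5 CPM at E1 against 0 in controls.

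Smaller shares of the markers of other cell types were called. Of 12 microglia markers 1 was called, Tyrobp, and 0 without libraries 2, 4 and 5. The call of Tyrobp was also lost without control library 4 or 5, and its log2 fold change of 4.22 was 7.93 without control library 3. The sum of the 12 was 103 to 158 CPM at E1 and 50.8 to 93.3 CPM in controls. Of 11 oligodendrocyte markers 3 were called, and 1 (Cldn11) without libraries 2, 4 and 5. Of the 11, 10 had a positive log2 fold change and 9 an unadjusted p under 0.05 by edgeR, with a median log2 fold change of 1.26. Cldn11, the claudin of myelin, was at 8.17, 20.5, 18.3, 26.9 and 2.70 CPM in controls and at 129, 72.5, 16.9, 55.9, 107 and 43.7 CPM at E1 (log2 fold change 2.20, SE 0.44, adjusted p = 0.00118), with E1 library 3 inside the control range. The sum of the 11 markers was 2647, 2171, 1125, 1486, 2239 and 1132 CPM at E1 and 1178 to 1341 CPM in controls, so that libraries 3 and 6 were below and libraries 1, 2, 4 and 5 above all controls. Ighm was the called gene of 6 B cell markers, of which 0 were called without libraries 2, 4 and 5. No marker of oligodendrocyte precursors, neurons, endothelial, mural, ependymal, choroid plexus or erythroid cells was called by edgeR or by DESeq2, with 0, 1, 3, 1, 1, 0 and 0 members in that order at an unadjusted p under 0.05. These sums are given beside the results below, and their part in them was not tested.

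**Figure D3:**
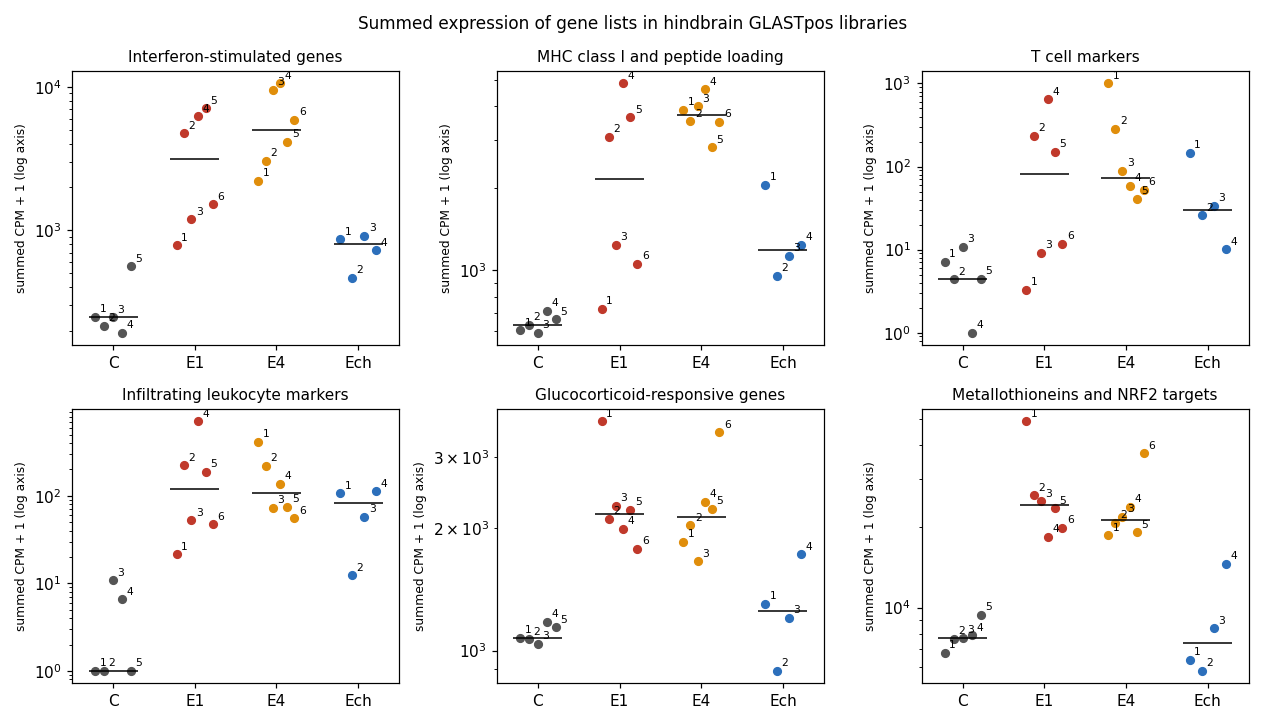
Summed expression of 6 gene lists in each hindbrain GLASTpos library, as summed CPM + 1 on a log axis, for libraries of C, E1, E4 and Ech, with the replicate number beside each point and a line at the group median. E1 libraries 2, 4 and 5 lie above libraries 1, 3 and 6 for interferon-stimulated genes, MHC class I, T cell and infiltrating leukocyte markers, whereas E1 library 1 is the highest of the E1 libraries for glucocorticoid-responsive genes and for metallothioneins with NRF2 targets.

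Calls of genes known from reactive astrocytes differed between lists. Of 13 genes induced in many injuries (pan-reactive) 6 were called higher, and of 11 genes induced by systemic lipopolysaccharide (LPS) 7 were called, and 2 and 4 of them without libraries 2, 4 and 5. Of 11 genes induced by stroke (middle cerebral artery occlusion, MCAO) 0 were called by edgeR, with 7 at an unadjusted p under 0.05 and 1 called by DESeq2. Of the MCAO genes 1 was detected in all 6 E1 libraries, against 8 of the LPS and 6 of the pan-reactive genes. The part of low expression in the difference in calls was not tested. The median log2 fold changes were 3.46, 3.94 and 2.74, and 1.79, 3.94 and 0.32 with members at 0 in all controls set to their bounds. The called LPS genes were Gbp2, Iigp1, H2-D1, Psmb8, Serping1, Fkbp5 and Srgn, and the first 4 also belong to the interferon and MHC genes described above. Gbp2, Iigp1, Psmb8 and Fkbp5 were called without libraries 2, 4 and 5.

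Gfap, the intermediate filament whose rise defines astrocyte reactivity, was low in GLASTpos controls, at 6.54, 36.4, 28.4, 13.7 and 16.4 CPM. At E1 it was at 96.8, 250.2, 46.6, 368, 383 and 199 CPM. Each E1 library was above each control, and the log2 fold change was 3.46 (SE 0.38, adjusted p = 1.74e-09). Serpina3n, a secreted protease inhibitor, was at 10.2, 6.82, 12.7, 4.82 and 0 CPM in controls and at 46.6, 111, 26.4, 225, 152 and 40.7 CPM at E1 (log2 fold change 3.89, SE 0.54, adjusted p = 6.53e-07). Both were called without libraries 2, 4 and 5, at log2 fold changes of 2.48 each. Cd44, a receptor for hyaluronan, was at 30.6 to 246 CPM against 14 to 26.6 CPM (log2 fold change 2.39, adjusted p = 0.00692), and its call was lost without E1 library 4. Lcn2, an acute-phase lipocalin, was at 0 in controls and at 1.97, 6.56, 0, 4.72, 0.642 and 0 CPM at E1 and was not called (adjusted p = 0.0633), though it was under 4 of 21 alternatives. Vim, the other filament gene of the list, had a log2 fold change of 0.18.

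Of 11 complement genes 4 were called, and 1 (C4b) without libraries 2, 4 and 5. C4b, which codes for component 4, was at 2.45, 6.82, 0.326, 3.81 and 14.5 CPM in controls and at 78.4, 177, 49.9, 271, 315 and 157 CPM at E1. The groups did not overlap (log2 fold change 4.91, SE 0.45, adjusted p = 2.04e-12), and the gene was called at 4.02 without libraries 2, 4 and 5. C4b has a near-identical copy, C4a, between which reads may be split. C3, the central component, was at 0 in all controls and at 0, 1.64, 2.05, 9.80, 3.85 and 0.326 CPM at E1 (at least 2.40-fold higher, adjusted p = 0.0423), and the call was lost without E1 library 4 or 5 or any control. Serping1, the inhibitor of C1, was at 0 to 5.72 CPM in controls and 2.61 to 97.6 CPM at E1 (log2 fold change 3.94, adjusted p = 0.000509), and lost its call without libraries 2, 4 and 5 (1.59, adjusted p = 0.42).

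Components of the interleukin 6 and STAT3 route rose in part. Stat3 was at 98.9, 121, 107, 86.6 and 77.3 CPM in controls and at 422, 393, 192, 510.2, 515 and 245 CPM at E1 (log2 fold change 1.95, SE 0.23, adjusted p = 2.42e-08). No library overlapped, and without libraries 2, 4 and 5 the value was 1.53 (adjusted p = 0.00026). Stat3 overlaps Stat5a on the opposite strand. Cebpd, a transcription factor of the acute phase, was at 12.1 to 31.2 CPM in controls and 41.4 to 200 CPM (median 139) at E1 (log2 fold change 2.92, SE 0.48, adjusted p = 3.15e-05). Socs3, the feedback inhibitor of STAT3, was at 8.46, 27.5, 4.35, 36.3, 24.7 and 1.30 CPM at E1 against 0.491 to 4.90 CPM (log2 fold change 2.88, adjusted p = 0.0279), a call that was lost without E1 library 2, 4 or 5 or control library 2, 4 or 5. Tnfrsf1a, a receptor for tumour necrosis factor, rose from 23.5 to 49.0 CPM to 64.5 to 167 CPM (log2 fold change 1.63, SE 0.28, adjusted p = 0.000107). In the whole list of receptors and signalling genes 7 of 21 were called, and 3 (Stat3, Cebpd and Tnfrsf1a) without libraries 2, 4 and 5. Among receptor genes of the list Osmr was also called higher, a call that 11 of 21 alternatives ended. Without libraries 2, 4 and 5 its log2 fold change was 2.27 (adjusted p = 0.497). The shared receptor chains Il6st and Lifr had log2 fold changes of 0.03 and 0.24.

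Of 21 chemokine and cytokine genes 7 were called, and 0 without libraries 2, 4 and 5. Cxcl10, a chemokine for T cells, was at 0, 50.5, 5.12, 91.5, 69.3 and 9.45 CPM at E1 and at 0.508 to 7.58 CPM in controls (log2 fold change 3.77, adjusted p = 0.0204), and its call was lost without E1 library 4 or control library 1, 3, 4 or 5. Il1b had 1 count in controls and 0, 37.7, 3.07, 22.9, 22.2 and 20.5 CPM at E1, and Ccl5, which T cells also make, was at 101 CPM in library 4, 23.6 CPM in library 2, 11.9 CPM in library 5 and at most 0.326 CPM in the others. Cd274, which encodes the checkpoint ligand PD-L1, was at 2.86, 0.379, 2.28, 0 and 0 CPM in controls and at 6.49, 31.8, 11, 45.7, 21.5 and 21.5 CPM at E1 without overlap (log2 fold change 4.47, SE 0.85, adjusted p = 0.000497). Of 11 checkpoint and adhesion genes Cd274 and Icam1 were called, and 0 without libraries 2, 4 and 5.

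Metallothioneins and glucocorticoid-responsive genes followed another order of libraries. Mt2, which binds zinc and copper, was at 3614, 4550.1, 3557, 3958 and 5439 CPM in controls and at 32661, 15438, 15243, 11999, 14538 and 12368 CPM at E1 (log2 fold change 2.01, SE 0.39, adjusted p = 0.000605). Library 1, which had the lowest interferon sum, was the highest, and the groups did not overlap. Mt1 was at 2536 to 3509 CPM in controls and at 15675, 9789.8, 8574, 5638, 8028 and 6804 CPM at E1 (log2 fold change 1.58, SE 0.38, adjusted p = 0.0128). Together with 8 NRF2-linked or related genes the list summed to between 18340 and 49101 CPM at E1 and 6793 to 9410 CPM in controls, yet of those 8 genes 0 were called higher and Slc7a11, the cystine transporter, was called lower on a call that many alternatives ended. Mt2 remained called without libraries 2, 4 and 5 (log2 fold change 2.23, adjusted p = 0.00325).

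Tsc22d3, which encodes the glucocorticoid-induced leucine zipper, was at 226, 222, 180.5, 211 and 223 CPM in controls and at 1131, 495, 599, 439.8, 594 and 538 CPM at E1 (log2 fold change 1.57, SE 0.29, adjusted p = 0.000279). Fkbp5, a chaperone of the glucocorticoid receptor, was at 0.409, 0, 9.79, 0 and 0 CPM in controls and at 124, 25.9, 43, 43.2, 30.8 and 17.3 CPM at E1 (log2 fold change 4.54, SE 0.85, adjusted p = 0.000379). Control library 3 set this fold, which was 8.62 without it. Zbtb16, a zinc finger factor, was at 0.758 to 10.6 CPM in controls and at 17 to 75 CPM (median 48.5) at E1 (log2 fold change 2.93, SE 0.45, adjusted p = 6.21e-06). None of these genes overlapped between the groups. Map3k6, a kinase, was at 81.8 CPM in E1 library 1 and 4.56 to 10.9 CPM in the other E1 libraries against 0 in all controls, at least 16.6-fold higher. In the list of 16 genes 6 were called and 8 did not overlap, with a median log2 fold change of 1.39, and 5 were called without libraries 2, 4 and 5. Nr3c1, the receptor gene, had a log2 fold change of -0.28.

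In a subset chosen by library names, with fewer libraries in both groups, interferon genes kept more of their calls than these genes did. Without the 5 libraries whose names carry 2 numbers (control libraries 1 and 3 and E1 libraries 1, 2 and 6), log2 fold changes were 1.61 for Mt2, 1.35 for Tsc22d3 and 1.83 for Zbtb16, with adjusted p = 0.115, 0.0599 and 0.0809, and 1 of the 16 glucocorticoid-responsive genes, Fkbp5, was called, against 29 of the 42 interferon-stimulated genes. Mt2, Tsc22d3 and Zbtb16 kept their calls when any 1 library was left out, while Mt1 had an adjusted p of 0.0507 without E1 library 1. Whether the smaller number of libraries or the particular libraries left out ended the calls in the subset was not tested.

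**Figure D4:**
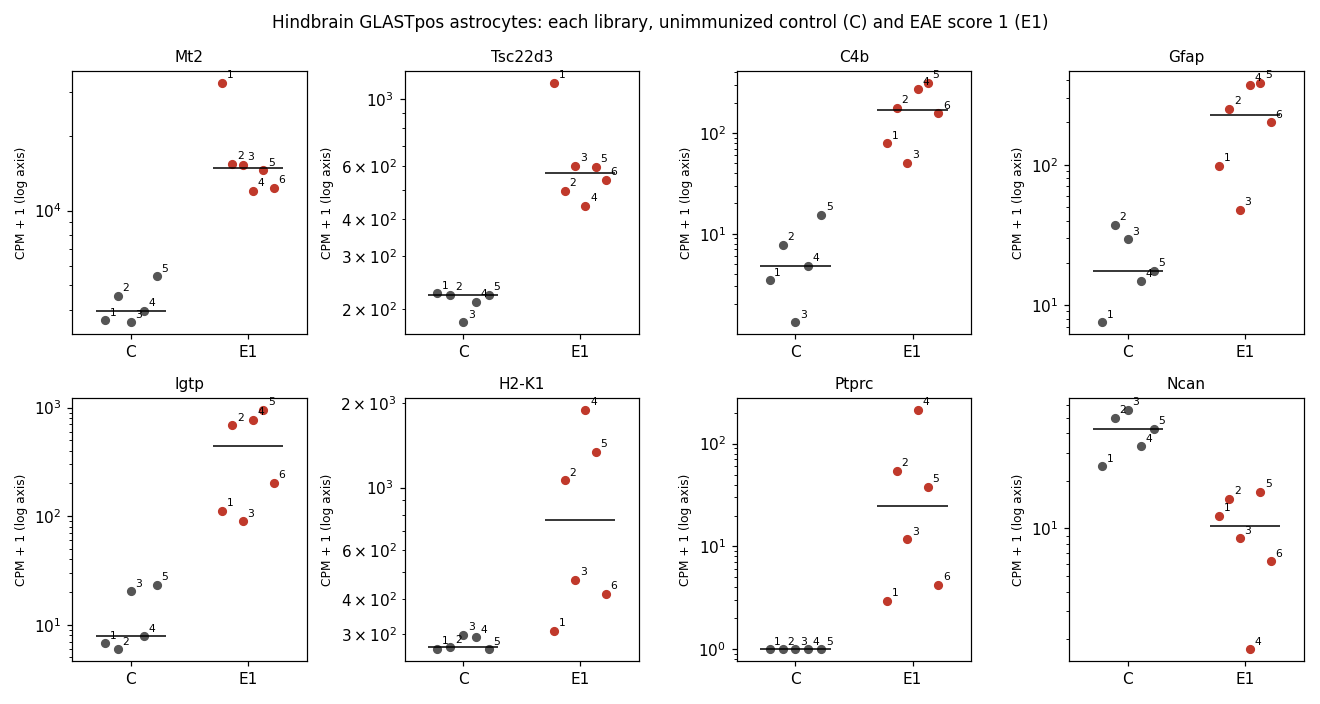
Expression of 8 genes in each hindbrain GLASTpos library, as CPM + 1 on a log axis, with the replicate number beside each point and a line at the group median (C, n = 5, and E1, n = 6). E1 library 1 is the highest of both groups for Mt2 and Tsc22d3 and the lowest of the E1 libraries for H2-K1 and Ptprc, and E1 values of Ncan lie below all controls.

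Cell cycle genes were called for 4 of 18 members (Top2a, Cdk1, Birc5 and Ube2c), with a summed level of 66.9, 188, 77.6, 173, 170.1 and 41.7 CPM at E1 and 48.3 to 60.1 CPM in controls. The 3 libraries with T cell markers were the highest, and 0 members were called without them. Top2a, a topoisomerase of dividing cells, was at 0.846, 25.2, 7.68, 52.6, 26.6 and 7.82 CPM at E1 and at 3.27 CPM in control library 1 and 0 in the others (log2 fold change 5.15, and 8.88 without that control). Of 19 immediate early and stress genes 3 were called, Junb, Fos and Klf4, and 0 without libraries 2, 4 and 5.

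Of 17 genes that the study itself names for EAE 8 were called higher, C4b, Cd274, Clec7a, Gfap, H2-Aa, H2-D1, Il1b and Serpina3n, and 4 without libraries 2, 4 and 5. The study chose them on these samples, so their direction is not independent evidence.

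Genes that define astrocytes did not pass the test in either direction. Of 20 identity genes 0 were called by edgeR or by DESeq2, with 1 at an unadjusted p under 0.05 and a median log2 fold change of -0.08. Slc1a2, the glutamate transporter GLT-1, was at 4937 to 5393 CPM in controls and 4109 to 5723 CPM (median 4785) at E1, Aqp4 at 667 to 834 and 641 to 829 CPM, and Gja1, the main connexin of astrocytes, at 657 to 1270 and 666 to 1305 CPM. Aldoc, the aldolase of astrocytes, was at 6250 to 8590 CPM in controls and at 6999 to 11864 CPM at E1. Of 14 Bergmann glia genes 0 were called by edgeR over all 66 libraries or by DESeq2, with 2 at an unadjusted p under 0.05. Those 2 were named after their values were seen. Fabp7, a fatty acid binding protein of radial glia, was at 400.1, 417, 224, 508 and 104 CPM in controls and at 55.1 to 209 CPM (median 89.6) at E1 (log2 fold change -1.64, adjusted p = 0.0699), and Tnc, which encodes the matrix protein tenascin C, was at 168 to 332 CPM in controls and 73.8 to 105 CPM at E1 without overlap (log2 fold change -1.38, adjusted p = 0.168). Fabp7 was called under 4 of 21 alternatives and Tnc under 1, both when only the groups compared were fitted (adjusted p = 0.00215 and 7.57e-05). Of the genes of cholesterol synthesis (19), lactate metabolism (15) and the blood-brain barrier (13), 0 were called by edgeR or DESeq2, with 1, 3 and 3 at an unadjusted p under 0.05.

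Genes called lower were few and mostly of low expression. Of the 50, 27 were at 0 in all E1 libraries and 20 had a mean of at least 5 CPM in controls, and 6 of these did not overlap with E1. Ncan, which encodes the proteoglycan neurocan of the perineuronal matrix, was at 23.7, 48.9, 54.8, 32 and 41.5 CPM in controls and at 11, 14.4, 7.68, 0.726, 16.1 and 5.21 CPM at E1. Its log2 fold change was -2.12 (SE 0.37, adjusted p = 9.64e-05) and -2.34 without libraries 2, 4 and 5. Slc30a1, a zinc exporter, was at 121, 129.6, 164, 152 and 116 CPM in controls and at 31.0, 32.1, 92.4, 47.5, 60.4 and 66.8 CPM at E1 (log2 fold change -1.31, adjusted p = 0.00469). Igsf1, an immunoglobulin superfamily membrane protein, went from 40.6 to 88.1 CPM to 4.23 to 27.9 CPM (log2 fold change -2.16), and Cux2, a homeobox factor, from 8.34 to 14.7 CPM to 0 to 4.26 CPM (log2 fold change -2.24). Them4, a thioesterase, had a log2 fold change of -1.06 and Acap3, a GTPase-activating protein, one of -1.81. Of these 6, Ncan was the one still called without libraries 2, 4 and 5. In the list of 18 matrix genes Ncan was the gene called lower and Thbs2, described next, the gene called higher.

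The response was then compared with that of hindbrain GLASTneg astrocytes at the same score by an interaction contrast. Of 23324 genes 2 differed (0.00857%), with 2083 at an unadjusted p under 0.05 and 17 called by DESeq2. Thbs2, which encodes the secreted synaptogenic protein thrombospondin 2, was at 0.817, 0, 2.28, 1.27 and 0 CPM in GLASTpos controls and at 7.34, 17.4, 12, 25, 18.3 and 5.87 CPM in GLASTpos cells at E1 (log2 fold change 3.97, SE 0.53, adjusted p = 2.63e-07). In GLASTneg cells it was at 33.9 ± 8.63 CPM in controls (n = 5) and 42.5 ± 14.5 CPM at E1 (n = 6). The difference between both responses was 3.64 on the log2 scale (SE 0.65, adjusted p = 0.00461), and the E1 level of GLASTpos cells remained below the control mean of GLASTneg cells in each library. Over 31 alternatives the difference lay between 2.88 and 4.31 and was called in 29, the exceptions being the fit without E1 libraries 2, 4 and 5 and the DESeq2 test for changes beyond 1 on the log2 scale. The other gene, the processed pseudogene Gm12338, was called on 1 control library of GLASTneg cells, and the call was lost without it. Numbers in the library names recur between the populations and the regions, and whether these are the same animals is not stated. The test treats the libraries as independent, and no block on these numbers was run.

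Side by side, 148 genes were called higher at E1 in GLASTneg cells (0.635%) and 2 lower. Of the 297 genes of GLASTpos cells 97 (32.7%) were among these 148, which is 65.5% of the latter, and 285 of the 297 had a positive log2 fold change in GLASTneg cells. Interferon-stimulated genes were called for 34 of 42 members there, MHC class I genes for 11 of 16 and glucocorticoid-responsive genes for 4 of 16. Igtp had log2 fold changes of 5.28 in GLASTpos and 5.47 in GLASTneg cells, C4b 4.91 and 3.86, Gfap 3.46 and 2.94, and Mt2 2.01 and 1.12, where only the first was called. T cell markers summed to 30.1 to 135 CPM in GLASTneg E1 libraries and 1 of 12 was called. A list with members called in one population and not in the other is not shown to differ, since no list member other than Thbs2 passed the interaction test.

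**Figure D5:**
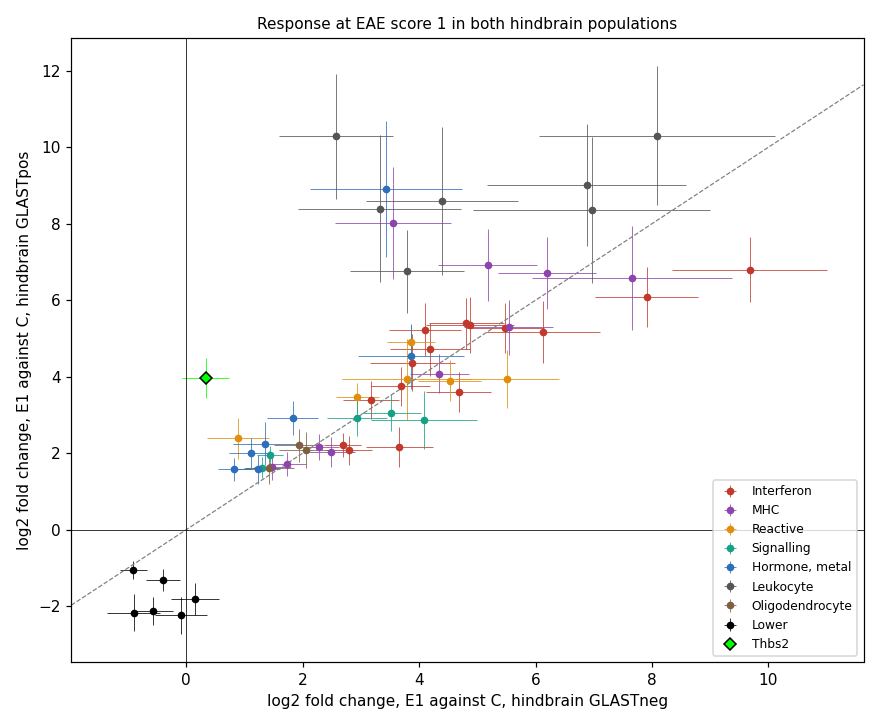
Log2 fold change at E1 against control in hindbrain GLASTpos astrocytes (vertical axis) and in hindbrain GLASTneg astrocytes (horizontal axis) for the genes of the heat map and Thbs2, with bars of 1 SE and a dashed line of equal change. Thbs2, the green diamond, is at 3.97 in GLASTpos and 0.33 in GLASTneg cells.

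Against spinal cord GLASTneg astrocytes at the same score, 319 genes had a higher response in hindbrain GLASTpos cells (1.37%) and 144 a lower one (0.617%). Region and GLAST differ together in this contrast, and in spinal cord 582 genes were called higher at E1 (2.5%) and 858 lower (3.68%). Of the 297 genes 143 (48.1%) were also called higher in spinal cord, 24.6% of the genes called there. In spinal cord 9 of 20 identity genes were called lower, against 0 in hindbrain GLASTpos cells, and for 6 of them (Aldoc, Aldh1l1, Btbd17, Fgfr3, Acsbg1 and Gjb6) the response differed by the interaction test. Of 30 alternatives, 14 kept the call for Acsbg1 and 12 for Gjb6. Btbd17 was at 785 ± 180 CPM in spinal cord controls and 174 ± 133 CPM at E1 (SD, n = 5 each), while hindbrain GLASTpos cells had 1185 ± 195 and 832 ± 229 CPM, a difference in response of 1.66 on the log2 scale (SE 0.40, adjusted p = 0.0178). For Aldoc the difference was 1.27 (SE 0.31, adjusted p = 0.0178) and for Aldh1l1, a folate enzyme used as an astrocyte marker, 1.73 (SE 0.45, adjusted p = 0.0278).

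Few members of the reactive, interferon and glucocorticoid lists differed, where 1.37% of all genes had a higher and 0.617% a lower response. By the interaction test these were 1 of 13 pan-reactive, 0 of 11 LPS and 0 of 11 MCAO genes. Of the interferon-stimulated genes 1 of 42 differed, and of the glucocorticoid-responsive genes 1 of 16. In spinal cord 5 of these 16 were called higher, against 6 in hindbrain GLASTpos cells. Serpina3n reached 1887 ± 1048 CPM in spinal cord and 100.4 ± 77.8 CPM in hindbrain GLASTpos cells at E1, a difference in response of -2.56 (SE 0.70, adjusted p = 0.0364). Ifit3 differed by -3.68 (SE 0.77, adjusted p = 0.0056), with controls of 63.5 ± 49.4 CPM in hindbrain GLASTpos and 5.52 ± 3.95 CPM in spinal cord. Tsc22d3 was at 218 ± 51.7 and 172 ± 113 CPM in spinal cord and differed by 1.92 (SE 0.41, adjusted p = 0.00667). Tnc, which rose in spinal cord (log2 fold change 2.42, adjusted p = 0.0104), differed by -3.80 (SE 0.83, adjusted p = 0.00901). Igtp, C4b and Stat3 had differences of -0.59, 0.02 and -0.11 and did not pass the test.

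At score 4 the same population was compared with E1 directly. Of 23324 genes 5 differed (0.0214%), with 3698 at an unadjusted p under 0.05. Of these Lrrc4c, a synaptic adhesion protein, was lower at E4, with 7.34, 13.4, 28.7, 7.26, 7.70 and 5.87 CPM at E1 and 0.466, 0.995, 2.21, 5.33, 5.26 and 0.308 CPM at E4 (log2 difference -2.31, SE 0.43, adjusted p = 0.0119). When only the groups compared were fitted, 0 genes were called. The other 4, Arc and Hebp2 (at 0 in all E4 libraries) and Erich3 and Gm38056 (at 0 in all E1 libraries), had means of at most 2.80 CPM and fall outside the rule for named genes. Igtp differed between E4 and E1 by 1.43 (adjusted p = 0.229), Mt2 by -0.24 and Gfap by -0.04.

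Against the controls that E1 also used, 388 genes were called higher at E4 (1.66%) and 283 at Ech (1.21%), and 86 (0.369%) and 23 (0.0986%) were called lower. Interferon-stimulated genes were called for 35 of 42 members at E4 and for 7 of 42 at Ech, and their sum was 2213 to 10580 CPM at E4 and 466 to 916 CPM at Ech. Gfap was at 218 ± 67.9 CPM at E4 (n = 6) and 58.3 ± 23.7 CPM at Ech (n = 4), and C4b at 268 ± 85.8 and 71.9 ± 34.9 CPM. Both were called at both stages. Mt2 was at 14437 ± 4633 and 5131 ± 2582 CPM, called at E4 and not at Ech. Oligodendrocyte markers were called for 3 of 11 members at E4 and 9 of 11 at Ech. MHC class I genes were called for 13 of 16 and 3 of 16 members, glucocorticoid-responsive genes for 6 of 16 and 2 of 16, and T cell markers for 7 of 12 and 2 of 12.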

How the data were processed

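Sorted cells of the EAE experiment were sequenced with 3′ tag libraries (QuantSeq 3′ FWD). The deposited values are raw read counts per gene, which the authors made by aligning to GRCm38 with HISAT 0.1.5, using SAMtools, and counting with HTSeq 0.6.1p1 in union mode. The strand setting is not given in the sources used here. Of 48526 genes, 23324 that reached 10 counts in total were tested in R 4.3.3 with edgeR 4.0.16 (TMM scaling, quasi-likelihood test, two-sided, Benjamini-Hochberg adjustment) over all 66 libraries in 12 groups, with no replicate block. SE is the log2 fold change divided by the root of F. Intervals of ratios are exact for counts and cover counting error only. The scripts were tested on simulated data. Alternatives were DESeq2 1.42.0, other scalings and filters, only the groups compared, a replicate block, and libraries left out.

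Named genes came from the 15 largest called changes per direction, without group overlap and with a higher mean of at least 5 CPM. They also came from called list members, up to 3 abundant uncalled members of a list, genes the study names, and the sorted antigens. Not every gene under these rules is written out. Others are said to be chosen after their values were seen, as were uncalled receptor and filament genes with values only. The members and lists were chosen with earlier results of these data known. Promoters are RefSeq sequences of GRCm38.p6, and chromosome 18 was not scanned. Replicate numbers did not pair the libraries: deviations of same-numbered C and E1 libraries correlated between -0.0349 and 0.0571 over 10972 genes. The values of 1 gene are not reported here.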

Additional observations from a re-analysis of the deposited data

Results flagged for a closer look

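A library was set apart when its gap to the nearest other library, as a share of the range of its group, passed Dixon's 95% limit. Gaps and ranges were taken on log2(CPM + 1). Of 204 groups of values checked 16 were set apart, and chance gives about 1 in 20. In E1 library 1 these were Mt2 at 32661 CPM, Tsc22d3 at 1131 CPM, Map3k6 at 81.8 CPM, the glucocorticoid-responsive sum at 3669 CPM and the sum of metallothioneins and NRF2 targets at 49101 CPM, each the highest of its group. In control library 5 they were Irf9 at 59.4 CPM, Ifit3 at 151 CPM and the interferon-stimulated sum at 560.3 CPM, again each the highest.

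E1 library 4 stood apart for Gbp6 at 367 CPM and Apoe at 1501 CPM, and E1 library 3 for Fos at 6.4 CPM and Ddx60 at 1.28 CPM. E1 library 6 had Aqp4 at 829 CPM. Among controls, Aqp4 was at 667 CPM in library 3, Cebpd at 31.2 CPM in library 4 and the lactate metabolism sum at 3223 CPM in library 1.

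The response at E1 differed between populations by the interaction test for further results. Against GLASTneg cells of the hindbrain it was larger by 3.64 on the log2 scale for Thbs2 and by 14.92 for Gm12338, the latter with 1 GLASTneg control library that decided it. Against spinal cord GLASTneg cells the log2 difference was 1.27 for Aldoc, 1.73 for Aldh1l1, 1.41 for Fgfr3, 1.66 for Btbd17, 1.92 for Tsc22d3 and 4.36 for Thbs2. It was negative for Ifit3 (-3.68), Serpina3n (-2.56), Cux2 (-2.26), Ldb3 (-7.01) and Tnc (-3.80), where all 6 E1 libraries of hindbrain GLASTpos cells had 0 counts of Ldb3. Of 30 alternatives, 28 kept the call for Aldoc and for Btbd17, 24 for Aldh1l1, 13 for Fgfr3 and 16 for Serpina3n.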

How the results depend on the processing

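Under DESeq2's Wald test 475 genes were called higher, 92 lower, 17 in the contrast with GLASTneg, 715 in that with spinal cord and 70 between E4 and E1. When DESeq2 tested for changes beyond 1 on the log2 scale, these were 140 and 4 for E1 against C, 16 against spinal cord and 0 between E4 and E1. With only the groups compared, 22 genes were called lower, of which 9 were among the 50. In such fits 5 genes differed from GLASTneg, 83 from spinal cord and 0 between E4 and E1. With no filter 9 differed from GLASTneg and 20 between E4 and E1. Without E1 libraries 2, 4 and 5, 63 genes were called higher, 9 lower and 41 between E4 and E1, and log2 fold changes turned to -0.28 for Rsad2, -2.81 for Lck and -4.22 for Il2rb. Lck and Il2rb are T cell markers, by whose sum these libraries were chosen. Without the 5 libraries named with 2 numbers 202 were higher and 55 lower, of which 5 were among the 50. The cause of these shifts was not tested.

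Leaving out 1 library at a time gave 174 (without control 5) to 372 genes higher, with 185 without E1 4, and 24 (without E1 4) to 53 lower. It gave 1 (without GLASTneg control 1) to 5 genes against GLASTneg, 204 (without spinal cord E1 3) to 1056 (without spinal cord E1 2) against spinal cord, and 2 (without E4 2) to 12 (without E1 5) between E4 and E1. Against spinal cord, 307 and 304 were called without GLASTpos controls 3 and 5, 234, 251 and 263 without spinal cord controls 1, 4 and 5, and 235 without spinal cord E1 4.

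A replicate block, with numbers that did not pair the libraries, gave 316 genes higher, 40 lower, 3 against GLASTneg, 349 against spinal cord and 6 between E4 and E1. Of 102 genes followed through the alternatives, not all of which are named above, 88 were called. Of these, 30 were called under every alternative run, and 58 lost the call under at least 1. Of the 14 uncalled, Lcn2 and Fabp7 were called under 4 alternatives each and Tnc under 1. At 3 counts, the floor of 0.736 to 1.23 CPM limits what can be said of genes at 0.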
